A study of Mus musculus with 10 samples.

Results

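WNT target genes and TCF factors were examined in the RNA-seq libraries of mouse embryonic stem cells (mESCs) lacking a subunit of the mitotic deacetylase complex (MiDAC), in which DNTTIP1 and ELMSAN1 assemble with HDAC1. HDAC2 can also be part of the complex, but the study saw no interaction of it with DNTTIP1 or ELMSAN1 in mESCs. The group held 10 of the 34591 genes of the table: the targets *Axin2*, *T*, *Cdx1*, *Cdx2* and *Sp5*, the TCF factors *Lef1*, *Tcf7* and *Tcf7l1*, and the WNT modulators *Dkk1* and *Lgr5*. They were chosen by symbol, with their levels in these libraries already known, so their values are given as descriptions without p-values. All 10 were found, each in a single row. The cells were male C57/BL6 Bruce-4 mESCs. Besides WT there were 4 knockout clones. D2A7 and D1E6 are labelled *Dnttip1* KO, and E2E8 and E2G7 are labelled *Elmsan1* KO. Each of the 5 lines gave 2 libraries, 10 in all. Each knockout clone was grown from a single cell after CRISPR/Cas9 cleavage, and whether WT was cloned in the same way is not stated. All lines, WT included, were kept in 2iL medium, which holds LIF, the MEK inhibitor PD0325901 and the GSK3β inhibitor CHIR99021. GSK3 was therefore inhibited in every group, and no library shows the pathway without that inhibitor. Nothing states that the libraries of a line came from separate cultures, so their spread may be technical.

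In the canonical WNT pathway, a WNT ligand binds a Frizzled receptor with LRP5 or LRP6 and thereby blocks the complex of AXIN, APC, CK1α and GSK3 that marks β-catenin for degradation. Stabilized β-catenin enters the nucleus and binds the TCF factors, HMG box proteins that sit on the core CTTTG in regulatory DNA. Without β-catenin these factors recruit Groucho/TLE co-repressors, some of which work through histone deacetylases. TCF7L1 acts mainly as a repressor in mESCs and holds back naive pluripotency genes, whereas TCF7 and LEF1 act more often as activators. GSK3 inhibitors such as CHIR99021 stabilize β-catenin inside the cell, with no need for a ligand.

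The libraries held 31098269 to 86463773 fragments on genes, with WT replicate 1 the shallowest. Levels are scaled FPKM, that is, fragments corrected for exon length and library depth, after a further factor for each library. *Dnttip1*, the targeted gene of one knockout, was at 8.45 and 8.35 FPKM in WT, 4.57 and 4.55 in D2A7, and 2.58 and 2.60 in D1E6. *Elmsan1*, listed under its older symbol *C130039O16Rik*, was at 5.73 and 5.34 in WT and at 4.62 to 5.13 in the *Elmsan1* KO libraries, so its RNA level does not check those labels. In the *Dnttip1* KO libraries it was at 7.78 to 8.67. All 10 embryonic stem cell markers stood at 1 FPKM or more in every library. All 6 fibroblast markers and all 6 primitive endoderm markers stayed under 1 FPKM, but their sums were highest in D2A7. The fibroblast sum was 0.460 to 0.556 in D2A7, 0.108 to 0.113 in WT and 0.0582 to 0.143 in the other clones, and the primitive endoderm sum was 1.44 to 1.55, 1.05 to 1.14 and 0.684 to 0.868. The fibroblast marker *Pdgfrb* (log2 fold change 1.48) and the primitive endoderm marker *Gata4* (0.78) were called higher in D2A7. Of the other primitive endoderm markers, *Sox7* was called lower (-0.87), and *Pdgfra* (0.09) and *Dab2* (0.29) were not called. *Gata6* and the fibroblast markers *Col1a2*, *Col3a1*, *Twist2* and *Fap* were under 0.1 FPKM in every library. These calls set 2 libraries of 1 clone against 2 of WT, so they describe those libraries only.

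In WT cells the members, compared per length, ranged from 11.6 FPKM to the limit of detection. *Tcf7* was highest with 11.6 ± 0.418 FPKM (mean ± SD, n = 2), followed by *Axin2* with 9.46 ± 0.605. The values of those neighbours did not overlap. *Sp5* followed with 5.75 ± 0.334, *Tcf7l1* with 3.91 ± 0.0278 and *Cdx1* with 1.77 ± 0.196, and again no neighbours overlapped. *T* had 0.591 ± 0.101, *Lef1* 0.341 ± 0.00815, *Dkk1* 0.136 ± 0.0365 and *Cdx2* 0.0857 ± 0.0586. *Dkk1* and *Cdx2* could not be separated, since 1 *Cdx2* value lay between the *Dkk1* values. *Lgr5* was last with 0 and 0.00255 FPKM. The low members rest on few fragments per library, 24 to 56 for *T*, 46 to 188 for *Lef1*, 8 to 41 for *Dkk1*, 1 to 22 for *Cdx2* and 0 to 5 for *Lgr5*. In D2A7 the order was different, with *Cdx1* above *Sp5* and *Tcf7l1*.

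The sequences before the start sites of 3 targets are shown because these genes had unlike values in the KO clones and unlike numbers of TCF cores. They were picked with both known, and a relation between cores and values was not tested. RefSeq promoters (GRCm38.p6) were given for 8 of the 10 members, and the 250 bases before each start were searched on both strands for CTTTG and for CTTTGAT, a longer form that begins with the same core. The window of *Sp5* (chr2:70474673-70474922, + strand) held 4 copies of CTTTG, 1 of them within the CTTTGAT that begins 104 bases before the start. The window of *T* (chr17:8434173-8434422, + strand) held 3 copies of CTTTG and no CTTTGAT. The window of *Axin2* (chr11:108920099-108920348, + strand) held neither. The windows are printed 5′ to 3′ on the strand of the gene, and capitals mark CTTTG or its reverse complement CAAAG.
Sp5: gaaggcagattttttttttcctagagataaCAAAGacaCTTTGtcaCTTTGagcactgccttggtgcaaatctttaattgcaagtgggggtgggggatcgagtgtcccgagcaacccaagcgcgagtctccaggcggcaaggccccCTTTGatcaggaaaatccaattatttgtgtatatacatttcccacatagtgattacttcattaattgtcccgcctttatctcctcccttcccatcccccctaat
T: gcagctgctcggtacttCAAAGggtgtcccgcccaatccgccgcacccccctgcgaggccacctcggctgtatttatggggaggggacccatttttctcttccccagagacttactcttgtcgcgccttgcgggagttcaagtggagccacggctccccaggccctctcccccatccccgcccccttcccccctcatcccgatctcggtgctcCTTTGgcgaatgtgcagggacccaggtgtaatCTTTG
Axin2: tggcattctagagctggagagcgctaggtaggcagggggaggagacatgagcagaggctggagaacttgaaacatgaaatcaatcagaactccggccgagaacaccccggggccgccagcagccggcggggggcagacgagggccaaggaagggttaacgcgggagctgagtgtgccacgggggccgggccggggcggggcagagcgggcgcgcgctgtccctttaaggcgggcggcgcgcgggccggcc

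Of the 32851 windows of the same length in the table, 48.6% held at least 1 CTTTG, 3.94% at least 3 and 0.773% at least 4, and 3.21% held CTTTGAT. *Dkk1* also had 4 copies of CTTTG, *Tcf7l1* had 1, the 4 start sites of *Lef1* had 1 to 3, and *Tcf7* and *Cdx2* had none. None of these held CTTTGAT. *Dkk1*, with 4 copies, lay above both WT libraries in every *Dnttip1* KO library. *Tcf7*, with none, lay below both WT libraries in all 8 KO libraries. A match is a stretch of letters and not evidence of binding, and no match says only that these letters are not in this window.

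*T* (Brachyury), the transcription factor of the primitive streak and a direct WNT target, had the lowest share of its WT mean of all 9 members other than *Lgr5*, in each knockout. It is annotated at 8627288 to 8635361 of chromosome 17 (NCBIM37, + strand). *T* was at 0.662 and 0.519 FPKM in WT. In *Dnttip1* KO it was at 0.195 and 0.251 in D2A7 and at 0.223 and 0.164 in D1E6. In *Elmsan1* KO it was at 0.318 and 0.319 in E2E8 and at 0.236 and 0.175 in E2G7. All 8 KO libraries lay below both WT libraries, and the means were 35.2% of WT in *Dnttip1* KO and 44.3% in *Elmsan1* KO. The log2 fold change on the scale of FPKM + 0.1 was -1.16 (SE 0.198) in *Dnttip1* KO and -0.95 (SE 0.240) in *Elmsan1* KO, and it understates changes of genes this low. In bulk RNA, fewer cells that express a gene and less RNA in each cell cannot be told apart. Of the 8 mesendoderm markers, *Foxa2*, *Mesp1* and *Fgf8* were under 0.1 FPKM in every library. The summed level of the list was 6.34 to 6.73 in WT and 6.58 to 6.81 in D2A7. It was lower in the other clones, at 5.24 to 5.31 in D1E6, 5.09 to 5.19 in E2E8 and 4.82 to 5.1 in E2G7. In *Dnttip1* KO the log2 fold change of *Gsc* was 0.04 in D2A7 and -1.39 in D1E6, and that of *Eomes* was 0.17 and 0.76. In *Elmsan1* KO the markers *Gsc* fell (log2 fold change -1.52, adjusted p = 0.00255) and *Eomes* rose (0.70, adjusted p = 0.00905). These adjusted p-values take the libraries of a clone as independent. The part of such cells in the level of *T* was not tested.

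*Sp5*, a zinc finger repressor that is among the most direct targets of β-catenin in mESCs, was lower in every KO library than in either WT library. The gene lies at 70312980 to 70315786 of chromosome 2 (+ strand), and its promoter is the one with the longer TCF motif shown above. WT had 5.98 and 5.51 FPKM. D2A7 had 4.67 and 4.05, and D1E6 had 3.28 and 3.19. E2E8 had 3.35 and 3.51, and E2G7 had 4.15 and 4.10. The clones of a knockout did not overlap each other, and the lower clone of *Dnttip1* KO, D1E6, and the lower clone of *Elmsan1* KO, E2E8, held 56.3% and 59.7% of the WT mean. The log2 fold changes were -0.60 (SE 0.169) in *Dnttip1* KO and -0.60 (SE 0.118) in *Elmsan1* KO.

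*Axin2*, which encodes a negative feedback scaffold of the β-catenin destruction complex and is a widely used readout of the pathway, stayed close to WT. It lies at 108781663 to 108812097 of chromosome 11 (+ strand). Its level was 9.89 and 9.03 FPKM in WT, 10.8 and 11.7 in D2A7, 8.68 and 8.60 in D1E6, 7.91 and 8.70 in E2E8, and 8.96 and 9.28 in E2G7. D2A7 lay above WT and D1E6 below it, and both knockout groups overlapped WT. The log2 fold change was 0.06 (SE 0.146) in *Dnttip1* KO and -0.12 (SE 0.0851) in *Elmsan1* KO. Among the targets with more than 5 FPKM in WT, *Sp5* was lower in all 8 KO libraries while *Axin2* was lower than both WT libraries in 5 and higher in 2.

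**Figure D1:**
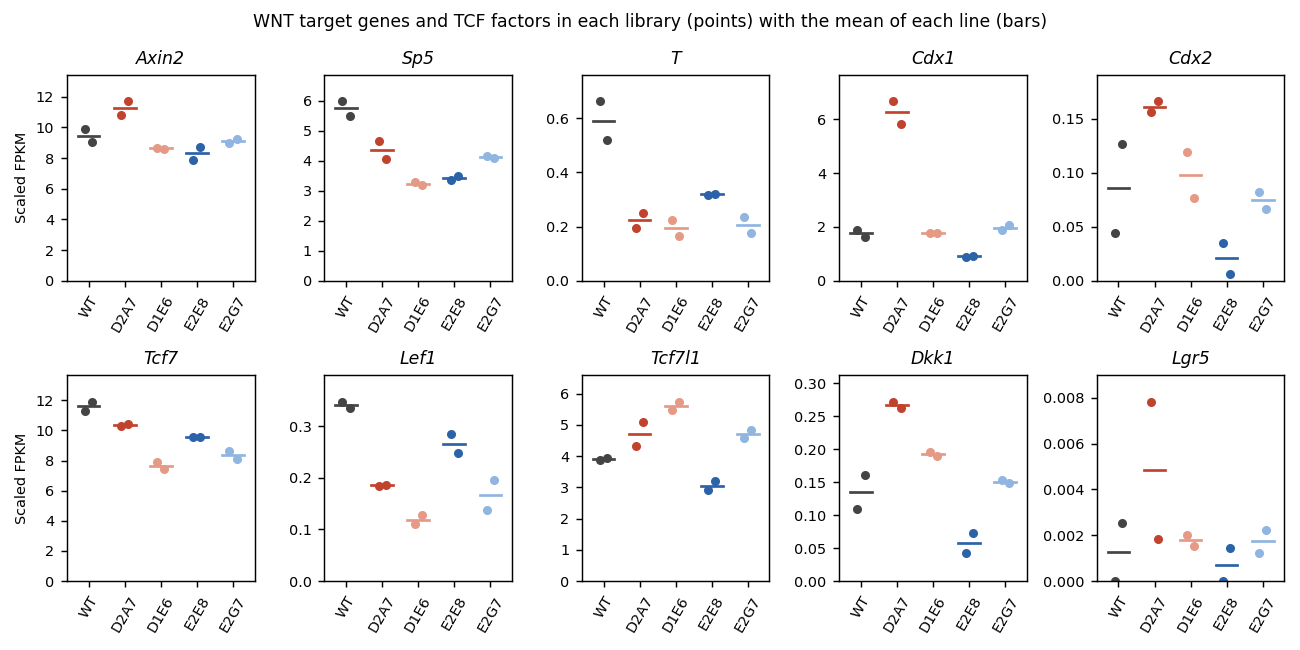
Scaled FPKM (vertical axes, from 0, a separate scale for each gene) of the 10 members in the 2 libraries (points) of WT and of each knockout clone, with the mean of each line (bars). *T*, *Sp5*, *Lef1* and *Tcf7* are below both WT values in all 8 KO libraries, whereas *Cdx1* is high in D2A7 and low in E2E8, and *Lgr5* is near 0 throughout.

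The caudal homeobox genes differed between the clones of a knockout. *Cdx1*, a WNT and retinoic acid target that patterns the posterior body, was at 1.90 and 1.63 FPKM in WT. It was at 6.66 and 5.84 in D2A7, but at 1.78 and 1.79 in D1E6. E2E8 had 0.885 and 0.920, and E2G7 had 1.87 and 2.07. D2A7 thus held 354% of the WT mean and E2E8 51.1%, while D1E6 overlapped WT and E2G7 had 1 library within the WT range and 1 above it. The log2 difference was 1.75 (SE 0.0973) between D2A7 and D1E6 and -1.04 (SE 0.0973) between E2E8 and E2G7. The pooled log2 fold changes of 0.89 (SE 0.619) in *Dnttip1* KO and -0.37 (SE 0.378) in *Elmsan1* KO describe neither clone of the pair, and without D2A7 the first was 0.02.

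*Cdx2*, the trophectoderm and posterior homeobox gene, was barely expressed. WT had 0.0442 and 0.127 FPKM, D2A7 0.156 and 0.166, D1E6 0.119 and 0.0770, E2E8 0.0348 and 0.00653, and E2G7 0.0824 and 0.0665. As for *Cdx1*, the D2A7 values were the highest and the E2E8 values the lowest. *Cdx2* passed the filter on low values in the *Dnttip1* KO comparison only through the KO libraries, with a log2 fold change of 0.32 (SE 0.289), and was not tested in *Elmsan1* KO. Of the 10 trophectoderm markers, 4 were called higher in D2A7 (*Krt8*, *Krt18*, *Krt7* and *Ascl2*) and 1 lower (*Tfap2c*, log2 fold change -0.65), while *Tead4* (0.05), *Eomes* (0.17) and *Gata3* (0.23) were not called. *Tead4* and *Eomes* were called higher in D1E6 instead (0.79 and 0.76). *Krt8* was at 29.7 and 26.5 FPKM in D2A7 against 11.9 and 10.9 in WT, and *Krt18* at 11.3 and 11.5 against 4.38 and 3.96. Of the same list, *Elf5* and *Hand1* were under 0.1 FPKM in every library. The 10 markers summed to 67.8 to 72.5 in WT, 82.1 to 83.9 in D2A7, 78.4 to 78.8 in D1E6, 70.6 to 72.6 in E2E8 and 72.6 to 75.1 in E2G7. The part of such cells, and of cells with the fibroblast or primitive endoderm markers whose sums were also highest in D2A7, in the levels of *Cdx1* and *Cdx2* was not tested.

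*Dkk1* encodes a secreted inhibitor that binds LRP5 and LRP6 and is itself a WNT target. WT had 0.110 and 0.161 FPKM, D2A7 0.272 and 0.263, D1E6 0.196 and 0.189, E2E8 0.0433 and 0.0730, and E2G7 0.154 and 0.148. The *Dnttip1* KO libraries lay above both WT libraries, E2E8 lay below them and E2G7 within their range. Log2 fold changes were 0.48 (SE 0.214) in *Dnttip1* KO and -0.24 (SE 0.306) in *Elmsan1* KO. *Lgr5*, an R-spondin receptor that marks WNT-dependent adult stem cells, was not detectable above the floor of 3 fragments in all libraries but 1, D2A7 replicate 1, with 0.00783 FPKM. It was not tested, and no fold change is given.

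*Tcf7* and *Lef1*, the TCF factors that act more often as activators, had lower values in every KO library than in WT, although of these only *Lef1* in *Dnttip1* KO was called when a knockout was compared with WT. *Tcf7* (TCF1), the most abundant TCF factor here per length (chromosome 11, 52065873 to 52096681, - strand), had 11.3 and 11.9 FPKM in WT. D2A7 had 10.3 and 10.4, and D1E6 had 7.91 and 7.41. E2E8 had 9.58 and 9.58, and E2G7 had 8.60 and 8.09. Every KO library was below both WT libraries, the means were 77.8% and 77.3% of WT, and the log2 fold changes were -0.38 (SE 0.162) in *Dnttip1* KO and -0.37 (SE 0.0897) in *Elmsan1* KO. *Lef1*, which is itself induced by WNT signalling in many cells (chromosome 3, 130813389 to 130927274, + strand), had 0.347 and 0.335 FPKM in WT. It had 0.184 and 0.186 in D2A7, 0.110 and 0.128 in D1E6, 0.285 and 0.247 in E2E8, and 0.138 and 0.195 in E2G7. All 8 KO libraries were below WT again, but E2E8 kept 78.1% of the WT mean and D1E6 34.9%. The log2 fold change was -0.82 (SE 0.212) in *Dnttip1* KO and -0.50 (SE 0.239) in *Elmsan1* KO.

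*Tcf7l1* (TCF3), the main repressor of the family in mESCs, did not follow *Tcf7* and *Lef1*. It was at 3.89 and 3.93 FPKM in WT, 4.31 and 5.09 in D2A7, 5.48 and 5.74 in D1E6, 2.90 and 3.19 in E2E8, and 4.57 and 4.83 in E2G7. All libraries of D2A7, D1E6 and E2G7 were above WT, and both libraries of E2E8 were below it. Its log2 fold change was 0.38 (SE 0.124) in *Dnttip1* KO and -0.05 (SE 0.225) in *Elmsan1* KO, and the *Elmsan1* KO clones differed by -0.61 (SE 0.0829). *Tcf7l1* lies at 72576372 to 72739248 of chromosome 6, whose expressed genes had a median log2 difference from WT of 0.4247 in D1E6, 0.385 in E2E8 and 0.2884 in E2G7 but -0.0823 in D2A7. With each chromosome centred on WT, the log2 fold change of *Tcf7l1* was 0.21 in *Dnttip1* KO and -0.38 in *Elmsan1* KO. The part of that shift in the level of *Tcf7l1* was not otherwise tested. *Tcf7l2* (TCF4), which is not among the 10 members, completed the family at 0.638 ± 0.0495 FPKM in WT (n = 2), 0.624 ± 0.117 in *Dnttip1* KO (n = 4, log2 fold change -0.04, SE 0.192, adjusted p = 0.918) and 0.495 ± 0.0642 in *Elmsan1* KO (n = 4, -0.31, SE 0.168, adjusted p = 0.278).

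A gene was called where it differed by at least 1.5-fold with an unadjusted limma p under 0.01. In *Dnttip1* KO, 2 of the 9 members tested, *Lef1* and *T*, were called lower and none higher, where 3.24% and 3.26% of all genes tested were called lower and higher. In *Elmsan1* KO, 2 of 8, *Sp5* and *T*, were called lower and none higher, against a background of 3.68% and 2.74%. Since the members were chosen with these levels known, nothing is read from the counts. Both comparisons used the same 2 WT libraries. The median log2 fold change of the members tested was 0.06 in *Dnttip1* KO and -0.37 in *Elmsan1* KO, beside 0.02 and 0.00 over all genes tested, and 4 of 9 and 8 of 8 were below 0. The calls depended on the settings. Of the other settings that could be computed, *T* was called in 16 of 19 for *Dnttip1* KO and 10 of 19 for *Elmsan1* KO, *Lef1* in 8 of 19 for *Dnttip1* KO, and *Sp5* in 12 of 20 for *Elmsan1* KO. A correlation allowed within clones ended the calls of all these members.

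**Figure D2:**
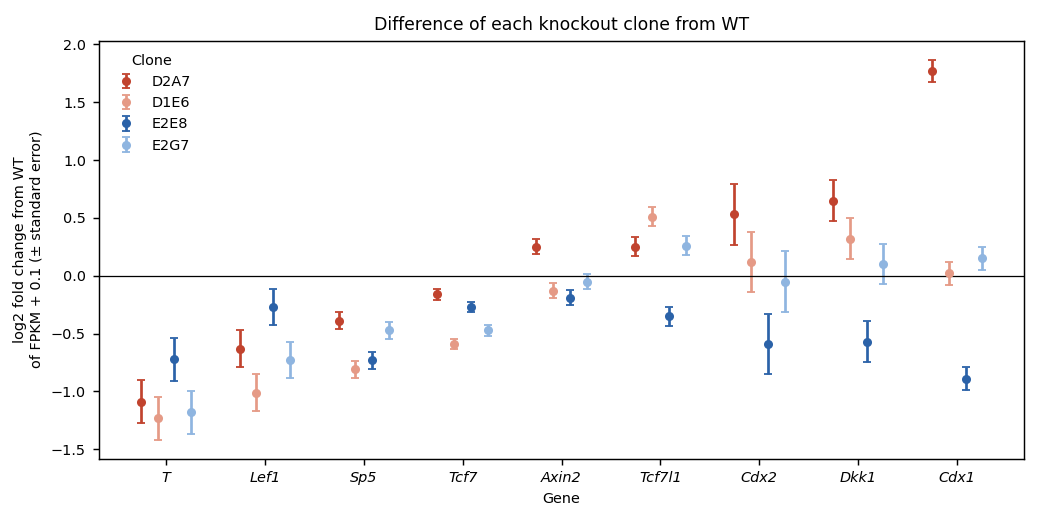
Log2 fold change from WT of FPKM + 0.1 (vertical axis) of the 9 members tested, for the clones D2A7, D1E6, E2E8 and E2G7 (points, with the standard error from a single fit of all 10 libraries as bars). *T*, *Lef1*, *Sp5* and *Tcf7* are below 0 in all 4 clones, while *Cdx1* runs from -0.89 in E2E8 to 1.77 in D2A7.

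Clone by clone, the members called lower were *Lef1* and *T* in D2A7, where 5.48% of all genes were called lower, and *Lef1*, *Sp5*, *T* and *Tcf7* in D1E6, with 5.94%. They were *Cdx1*, *Sp5* and *T* in E2E8, with 5.92%, and *Lef1* and *T* in E2G7, with 6.40%. Called higher were *Cdx1* and *Dkk1* in D2A7, where 10.8% of all genes were called higher. No member was called higher in D1E6, E2E8 or E2G7, where the shares of all genes were 5.04%, 10.2% and 3.55%. *T* was thus the member called in every clone, with log2 fold changes of -1.09 (SE 0.186) in D2A7, -1.23 (SE 0.186) in D1E6, -0.72 (SE 0.186) in E2E8 and -1.18 (SE 0.186) in E2G7. With a pseudocount of 1 its values were -0.38, -0.41, -0.27 and -0.40, and none reached 1.5-fold. Each call set 2 libraries of a clone against the same 2 WT libraries, so the calls describe those libraries only. They are not independent of each other, and the members were chosen with their levels known, so nothing is read from the calls. In E2E8 all 9 members tested were below WT, with a median log2 fold change of -0.57 beside 0.03 over all genes. In D2A7 4 of 9 were below WT and the median was 0.25 beside 0.04.

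The knockouts were also compared with each other, with no WT library in the fit. None of the 9 members tested was called, where 1.52% of all genes were called in either direction. *Sp5* and *Tcf7* were level, with log2 differences of *Dnttip1* KO from *Elmsan1* KO of 0.00 (SE 0.140) and 0.00 (SE 0.126). *T* differed by -0.22 (SE 0.195), *Lef1* by -0.32 (SE 0.209) and *Axin2* by 0.18 (SE 0.112). The differences of *Cdx1*, *Dkk1*, *Cdx2* and *Tcf7l1* were larger, 1.26 (SE 0.496), 0.72 (SE 0.232), 0.65 (SE 0.234) and 0.43 (SE 0.177). For each of these 4 genes, E2E8 was the lowest clone.

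The other genes of the pathway were taken from 7 lists of ligands, receptors, R-spondin factors, secreted antagonists, cytoplasmic relay, nuclear partners and further WNT-responsive genes, 101 genes in all. In *Dnttip1* KO, 76 could be tested, and 7 were called lower and 2 higher, beside 3.24% and 3.26% of all genes tested. In *Elmsan1* KO, 75 could be tested, and 13 were called lower and none higher, beside 3.68% and 2.74%. In the latter, 7 were higher at an unadjusted p under 0.05, and none was called higher by voom. The calls in *Dnttip1* KO were *Ccnd1*, *Nkx1-2*, *Notum*, *Ror1*, *Sfrp2*, *Tnfrsf19* and *Wnt7b* on the lower side and *Bcl9l* and *Fzd10* on the higher side. The calls in *Elmsan1* KO were *Apcdd1*, *Ccnd1*, *Ctbp2*, *Dkk3*, *Fst*, *Nkx1-2*, *Notum*, *Ror1*, *Rspo2*, *Sfrp2*, *Tnfrsf19*, *Wls* and *Wnt7b*. *Ror1* in each comparison, and *Rspo2* in *Elmsan1* KO, passed the filter on low values only through WT, so they could be called in no other direction. Among the genes that passed it in both groups, 6 of 67 pathway genes were called lower in *Dnttip1* KO (8.96%, beside 3.14% of all such genes). In *Elmsan1* KO 11 of 67 were called lower (16.4%, beside 3.37%). Called higher were 2 of 67 in *Dnttip1* KO (2.99%, beside 3.13%) and none in *Elmsan1* KO (beside 2.68%). These lists were drawn up with results of these libraries known, so the shares are descriptions. Between the knockouts, none of 75 was called, with 3 lower and 7 higher at an unadjusted p under 0.05. With a correlation estimated within clones (0.704 in *Dnttip1* KO, 0.768 in *Elmsan1* KO), the adjusted p of most of these genes was above 0.05, and it is given beside each call as the value with the correlation.

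**Figure D3:**
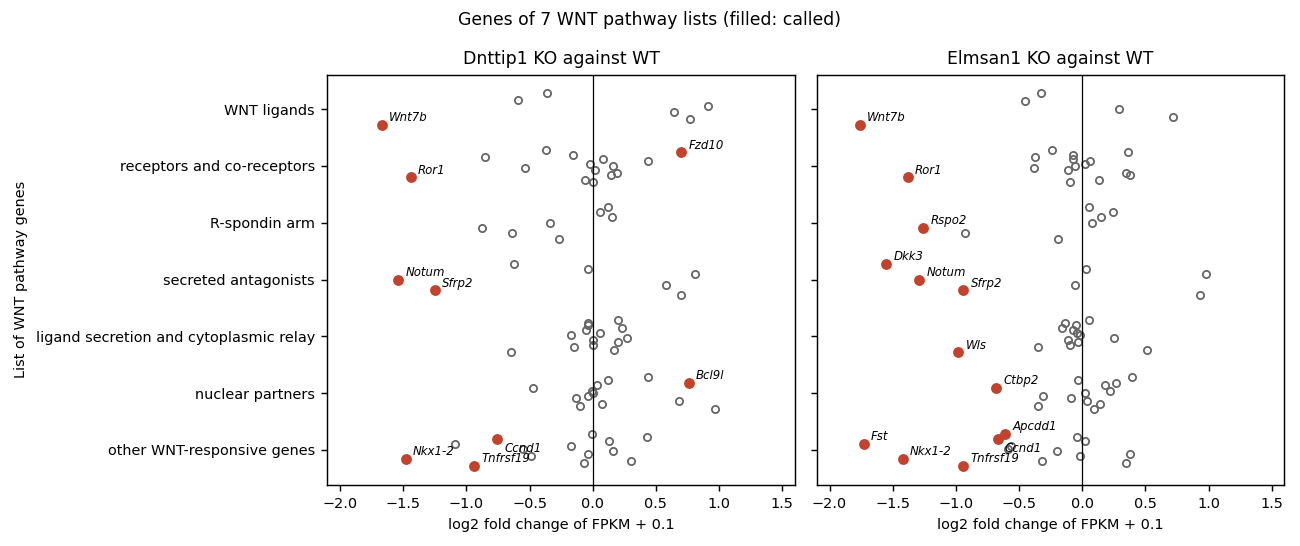
Log2 fold change from WT of FPKM + 0.1 (horizontal axes) of the tested genes of the 7 WNT pathway lists (rows) in *Dnttip1* KO and *Elmsan1* KO. Filled and named points were called, 9 of 76 and 13 of 75, and open points were not.

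Of the 14 secreted antagonists, 7 were tested and none was called higher. *Notum* and *Sfrp2* were called lower in *Dnttip1* KO, and *Dkk3*, *Notum* and *Sfrp2* in *Elmsan1* KO. At an unadjusted p under 0.05, 2 were lower and 2 higher in *Dnttip1* KO, and 3 lower and 2 higher in *Elmsan1* KO. *Notum*, a feedback enzyme that inactivates WNT proteins by removing their lipid, fell in every knockout clone. It was at 93.6 and 87.8 FPKM in WT, 32.5 and 34.1 in D2A7, 29.0 and 29.4 in D1E6, 35.7 and 37.0 in E2E8, and 36.8 and 38.3 in E2G7. The clones held 32.2% to 41.4% of the WT mean, and no KO library came near the WT libraries. The log2 fold change was -1.54 (SE 0.0815, adjusted p = 0.00242) in *Dnttip1* KO and -1.29 (SE 0.0520, adjusted p = 0.00102) in *Elmsan1* KO, and the calls held with the correlation within clones (adjusted p = 0.0123 and 0.0141). *Notum* lies at 120515102 to 120522489 of chromosome 11 (- strand).

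The other antagonists did not share a single pattern. *Sfrp2* fell from 2.72 ± 0.187 FPKM in WT (n = 2) to 1.38 ± 0.291 in *Elmsan1* KO (n = 4), with a log2 fold change of -0.94 (SE 0.201, adjusted p = 0.0351, or 0.265 with the correlation). In *Dnttip1* KO it was at 1.14 ± 0.439 (n = 4, -1.25, SE 0.339), a call with an adjusted p of 0.0728, or 0.266 with the correlation. *Dkk3*, a relative of *Dkk1*, fell in *Elmsan1* KO from 2.00 ± 0.150 to 0.631 ± 0.167 (-1.55, SE 0.243, adjusted p = 0.0150, or 0.171 with the correlation). In *Dnttip1* KO its clones stood on opposite sides of WT, at 2.97 and 3.16 in D2A7 and 0.455 and 0.528 in D1E6 against 1.90 and 2.11 in WT. *Sfrp1*, an abundant WNT-binding antagonist, was at 92.3 and 93.1 FPKM in WT, 178 and 174 in D2A7 and 107 and 111 in D1E6 (0.58, SE 0.246, adjusted p = 0.196), and at 73.3 and 73.6 in E2E8 and 108 and 108 in E2G7 (-0.06, SE 0.195, adjusted p = 0.875). *Sfrp1* lies on chromosome 8, which was shifted in all 4 clones (median log2 difference from WT 0.3488 to 0.3719), and with each chromosome centred its log2 fold changes were 0.21 and -0.41.

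Among the further WNT-responsive genes, 18 genes of which 14 were tested, 3 were called lower in *Dnttip1* KO and 5 in *Elmsan1* KO, and none higher. No gene of this list was higher at an unadjusted p under 0.05 in either comparison. *Tnfrsf19* (TROY), a receptor induced by β-catenin, was at 6.05 and 6.12 FPKM in WT and at 2.90 to 3.43 in all KO libraries. It fell by 0.94 on the log2 scale in both comparisons (SE 0.0746, adjusted p = 0.00426 in *Dnttip1* KO, and SE 0.0968, adjusted p = 0.00512 in *Elmsan1* KO), or with adjusted p of 0.0493 and 0.0775 with the correlation. *Nkx1-2*, a homeobox gene of the posterior neural plate, went from 4.42 and 4.69 to 1.21 to 2.02 FPKM, with log2 fold changes of -1.48 (SE 0.218, adjusted p = 0.0159) and -1.42 (SE 0.168, adjusted p = 0.00726), or adjusted p of 0.0872 and 0.124 with the correlation. It overlaps *Fgfr2* on the same strand, which had at most 1.04 FPKM. *Ccnd1* (cyclin D1), a cell cycle gene, was at 54.7 and 54.5 FPKM in WT, 28.4 and 27.0 in D2A7, 37.2 and 37.7 in D1E6, 31.5 and 31.2 in E2E8, and 37.5 and 37.5 in E2G7. Its log2 fold changes were -0.76 (SE 0.158, adjusted p = 0.0385) and -0.67 (SE 0.0980, adjusted p = 0.0127), or adjusted p of 0.122 and 0.0780 with the correlation.

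*Fst*, which encodes the activin inhibitor follistatin, was called in *Elmsan1* KO, from 8.86 and 9.20 FPKM in WT to 2.53 and 2.67 in E2E8 and 2.55 and 2.87 in E2G7 (-1.73, SE 0.0872, adjusted p = 0.00104, or 0.0286 with the correlation). In *Dnttip1* KO, D1E6 had 2.65 and 2.77 but D2A7 had 6.70 and 6.17 (-1.09, SE 0.430, adjusted p = 0.170). *Id2*, an inhibitor of basic helix-loop-helix factors, was at 5.77 and 6.01 in WT and 3.34 to 4.42 in *Elmsan1* KO (-0.56, SE 0.126, adjusted p = 0.0413, under the 1.5-fold limit, or 0.346 with the correlation). In *Dnttip1* KO its clones stood on opposite sides of WT, with 8.02 and 7.74 in D2A7 and 3.12 and 3.79 in D1E6 (-0.17, SE 0.420, adjusted p = 0.824). *Apcdd1*, a membrane-bound WNT inhibitor, was called lower in *Elmsan1* KO, where it was at 1.65 to 1.93 against 2.91 and 2.62 in WT (-0.61, SE 0.111, adjusted p = 0.0226, or 0.304 with the correlation), and it too split the *Dnttip1* KO clones. *Apcdd1*, *Wnt7b*, *Ror1* and *Rspo2* were outside the rule for named genes and were picked after their values were seen.

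**Figure D4:**
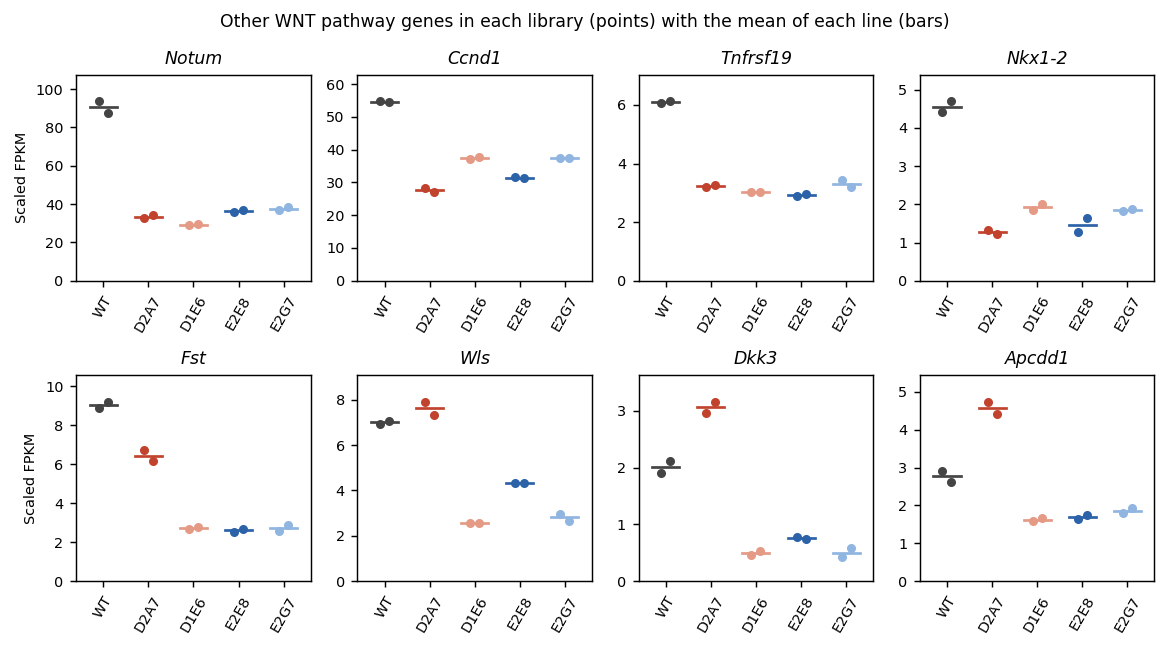
Scaled FPKM (vertical axes, from 0, a separate scale for each gene) of 8 WNT pathway genes in the 2 libraries (points) of WT and of each knockout clone, with the mean of each line (bars). *Notum*, *Ccnd1*, *Tnfrsf19*, *Nkx1-2* and *Fst* are below WT in all 8 KO libraries, whereas *Wls*, *Dkk3* and *Apcdd1* are above WT in D2A7 and below it in the other clones.

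Few ligands were expressed. Of 19 WNT genes, 6 could be tested in *Dnttip1* KO and 5 in *Elmsan1* KO, and *Wnt7b* was the 1 called in each. It was at 0.665 and 0.580 FPKM in WT and at 0.0682 to 0.196 in the KO libraries, with log2 fold changes of -1.67 (SE 0.270, adjusted p = 0.0197) in *Dnttip1* KO and -1.76 (SE 0.223, adjusted p = 0.00864) in *Elmsan1* KO, or adjusted p of 0.168 and 0.178 with the correlation. *Wnt5b*, the ligand with the highest mean level, was at 1.37 and 1.22 in WT, 1.21 and 1.12 in D2A7, 3.84 and 3.47 in D1E6, 1.73 and 1.85 in E2E8, and 2.51 and 2.93 in E2G7, and it was not called in either knockout (adjusted p = 0.504 and 0.0999). It shares its locus with *Fbxl14* on the opposite strand, lies on chromosome 6 like *Tcf7l1*, and had a log2 fold change of 0.72 in *Elmsan1* KO that became 0.39 with each chromosome centred. *Wnt3* was at 0.314 and 0.348 in WT and 0.115 to 0.299 in the KO libraries (adjusted p = 0.247 and 0.263). *Wls*, which carries WNT proteins to the cell surface, fell in *Elmsan1* KO from 6.99 ± 0.118 FPKM (n = 2) to 3.57 ± 0.883 (n = 4), with a log2 fold change of -0.98 (SE 0.223, adjusted p = 0.0417, or 0.178 with the correlation). In *Dnttip1* KO it was at 7.91 and 7.33 in D2A7 and 2.54 and 2.58 in D1E6 (-0.65, SE 0.541, adjusted p = 0.483).

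Of the 15 receptors and co-receptors, *Fzd10* was called higher in *Dnttip1* KO, and *Ror1* was on the lower side in each knockout through the filter. *Ror1*, a receptor of non-canonical WNT ligands, was at 0.330 and 0.385 FPKM in WT and at 0.0440 to 0.114 in the KO libraries, and no test is given for it. *Fzd10*, a Frizzled receptor, was at 13.3 and 12.5 in WT, 24.1 and 23.6 in D2A7, 18.1 and 18.7 in D1E6, 14.3 and 15.2 in E2E8, and 18.6 and 18.9 in E2G7. The log2 fold change was 0.70 (SE 0.140, adjusted p = 0.0353, or 0.131 with the correlation) in *Dnttip1* KO and 0.36 (SE 0.130, adjusted p = 0.131) in *Elmsan1* KO. *Fzd5*, another Frizzled receptor, was at 23.8 and 23.4 in WT and 31.3 to 32.4 in *Dnttip1* KO (0.44, SE 0.0419, adjusted p = 0.00548, under the 1.5-fold limit, or 0.0803 with the correlation). In *Elmsan1* KO it split between 19.8 and 20.1 in E2E8 and 30.4 and 30.6 in E2G7 (0.06, SE 0.215, adjusted p = 0.876). In the R-spondin arm, *Rspo2* was at 0.221 and 0.252 FPKM in WT, 0.0381 to 0.116 in *Dnttip1* KO and 0.0348 to 0.0553 in *Elmsan1* KO, and no test is given for it in *Elmsan1* KO. The R-spondin receptor *Lgr4* and the ubiquitin ligase *Znrf3*, which clears Frizzled receptors, were not called, with 16.9 to 22.2 and 2.75 to 3.65 FPKM over all 10 libraries.

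Few genes of the relay inside the cell were called. None of the 14 genes of ligand secretion and cytoplasmic relay was called in *Dnttip1* KO, where none was lower and 1 was higher at an unadjusted p under 0.05, and *Wls* was the 1 called in *Elmsan1* KO, where 2 were lower and 1 was higher at that p. *Ctnnb1*, which encodes β-catenin itself, was at 169 and 169 FPKM in WT and 160 to 191 in the KO libraries (log2 fold change 0.06, SE 0.0711, adjusted p = 0.640, and -0.04, SE 0.0504, adjusted p = 0.688). *Csnk1a1*, the CK1α kinase that primes β-catenin for GSK3, was at 46.6 and 46.7 in WT and 41.5 to 48.7 in the KO libraries (adjusted p = 0.723 and 0.440). RNA levels do not show the amount of β-catenin protein. Of the 13 nuclear partners, *Bcl9l*, a co-activator that links β-catenin to Pygopus, was called higher in *Dnttip1* KO at 2.31 and 2.55 in D2A7 and 1.80 and 1.74 in D1E6 against 1.11 and 1.26 in WT (0.76, SE 0.186, adjusted p = 0.0564, or 0.279 with the correlation). In *Elmsan1* KO it was at 1.08 to 1.82 (0.27, SE 0.220, adjusted p = 0.475). *Ctbp2*, a co-repressor, was called lower in *Elmsan1* KO, from 31.8 and 32.3 to 17.3 to 22.7 (-0.68, SE 0.130, adjusted p = 0.0249, or 0.123 with the correlation), and was at 20.9 to 25.8 in *Dnttip1* KO (-0.47, SE 0.0962, adjusted p = 0.0369, under the 1.5-fold limit, or 0.153 with the correlation). *Aes*, a short Groucho relative, was at 61.2 and 56.2 in WT and 69.1 to 82.6 in the KO libraries (0.44, SE 0.0534, adjusted p = 0.00921, and 0.39, SE 0.0885, adjusted p = 0.0423, both under the 1.5-fold limit, or 0.136 and 0.329 with the correlation). *Ctbp1* was not called (adjusted p = 0.913 and 0.188).

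The 6 naive pluripotency genes that TCF7L1 is known to repress were set beside *Tcf7l1*. None of the 6 was called in either knockout. In *Elmsan1* KO all 6 had log2 fold changes below 0, with a median of -0.35 beside 0.00 over all genes, and 4 were lower and none higher at an unadjusted p under 0.05. *Nanog* was at 325 and 324 FPKM in WT, 244 and 241 in E2E8 and 271 and 262 in E2G7 (-0.35, SE 0.0664, adjusted p = 0.0242, or 0.218 with the correlation). *Nr0b1* was at 32.3 and 32.6 in WT, 18.3 and 19.6 in E2E8 and 25.6 and 25.5 in E2G7 (-0.56, SE 0.156, adjusted p = 0.0731). *Esrrb*, *Klf2*, *Tfcp2l1* and *Tbx3* had log2 fold changes of -0.12, -0.34, -0.18 and -0.36 (adjusted p = 0.253, 0.135, 0.403 and 0.0872). *Nanog* lies on chromosome 6 like *Tcf7l1* and *Klf2* on chromosome 8, which was also shifted, and with each chromosome centred both had log2 fold changes of -0.69 and were called. In *Dnttip1* KO 3 of the 6 were below 0, with a median of -0.06 beside 0.02, and 2 were lower and none higher at an unadjusted p under 0.05. *Nanog* was at 275 to 291 (-0.20, SE 0.0485, adjusted p = 0.0539) and *Esrrb* at 90.9 to 94.9 against 105 and 100 (-0.15, SE 0.0436, adjusted p = 0.0926). *Klf2*, *Tfcp2l1* and *Nr0b1* were above WT in D2A7 and below it in D1E6, and with each chromosome centred the log2 fold change of *Klf2* turned from 0.09 to -0.28 and that of *Nanog* became -0.37. E2E8, the clone with the lowest *Tcf7l1*, thus also had the lowest levels of *Nanog*, *Klf2*, *Tfcp2l1*, *Nr0b1* and *Tbx3* of the 5 lines, each in both of its libraries, while its *Esrrb* level (log2 fold change -0.06) was nearest to WT of the 4 clones. The levels are given side by side, and a relation between them was not tested.

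For the 5 members with a mean of at least 1 FPKM, the 2 genes with the most similar profile over the 10 libraries were taken from 12215 genes by Pearson's r of log2 levels. They were *Git2* (r = 0.977) and *Pkmyt1* (0.974) for *Axin2*, and *Mcf2* (0.992) and *Myh13* (0.992) for *Cdx1*. For *Sp5* they were *Polr3g* (0.976) and *Btf3* (0.968), for *Tcf7* they were *Ly75* (0.979) and *Lix1l* (0.978), and for *Tcf7l1* they were *Cpsf7* (0.979) and *Foxk1* (0.971). *Mcf2* showed the *Cdx1* pattern at a higher level, with 19.7 and 19.7 FPKM in WT, 32.5 and 30.7 in D2A7, 20.0 and 20.6 in D1E6, 15.9 and 15.3 in E2E8, and 21.5 and 20.5 in E2G7. *Ly75* followed *Tcf7*, with 38.5 and 39.1 in WT, 33.6 and 33.5 in D2A7, 20.2 and 20.2 in D1E6, 28.3 and 28.8 in E2E8, and 21.1 and 21.2 in E2G7. The libraries of a line are not independent of each other, so such an r rests on 5 lines and is given as a description. Each r is also high by the choice of the most similar of 12215 genes.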

How the data were processed

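RNA was measured by RNA-seq in 10 libraries, 2 of WT mESCs and 2 of each of 4 knockout clones. Per the labels and the study's methods, the authors prepared stranded total RNA libraries, aligned them to NCBIM37 (mm9), counted with HTSeq on a GENCODE annotation, and used edgeR 3.16.5 and limma in R 3.3.1. Which library ran on which sequencer is not given in the sources used here. The deposited values are FPKM per gene, normalized by the authors to gene length and library size. Steps of low values gave whole fragments for 98.3% to 98.6% of values (within 0.05 of a step, under 100 steps), hence the fragment numbers. Positions are from GENCODE vM1 on NCBIM37, to which 33606 of 34591 gene IDs (97.2%) matched.

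FPKM was scaled by the median ratio over 11270 genes that reached 1 FPKM in each of the libraries (factors 0.965 to 1.01). Genes with at least 0.1 FPKM in 2 or more libraries of a comparison (17435 for *Dnttip1* KO, 17205 for *Elmsan1* KO) were tested with limma 3.58.1 (R 4.3.3) on log2(FPKM + 0.1) with a variance trend, and p-values were adjusted by Benjamini-Hochberg over all genes tested. Fold changes are on that log2(FPKM + 0.1) scale, which understates changes of low genes. Clones were compared in 1 fit of all 5 lines. A call is a fold change of at least 1.5 with an unadjusted p under 0.01. For a single gene, 2 against 4 libraries cannot give an exact permutation p under 0.0667. The fit was tested on simulated data with known changes. Those data held no differences between the clones of a knockout, so the test cannot show how such differences affect the calls. Tables and figures used Python 3.11.15, pandas 2.3.3, numpy 2.4.6 and matplotlib 3.10.9. The labels and the series text number the *Dnttip1* KO clones in opposite order, so clone codes are used.

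The 10 members and the pathway lists were chosen with earlier results of these data known. Other genes were named by rule: up to 4 called genes a list (mean level of 1 FPKM or more, the 4 KO libraries all above or all below both WT libraries), the 2 genes of highest mean in each list, the 6 naive genes, and the 2 genes most like each member with a mean of at least 1 FPKM. Alternatives covered the pseudocount, filter, scaling, variance model, correlation within clones, replicate block, chromosome centring, threshold and leaving out each library. Voom, leaving out each clone, and requiring the filter in both groups were added after the data were seen.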

Additional observations from a re-analysis of the deposited data

Results flagged for a closer look

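In a group of 4 KO libraries, a single library stood apart from the other 3 for *Lgr5* in D2A7 replicate 1 (gap of 0.926 of the range, on 0 to 5 fragments) and for *Rspo2* in E2E8 replicate 1 (0.874). These were 2 of 84 groups looked at, and chance gives about 1 in 20.

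Among the members and the other genes named here, there were 16 for which both libraries of 1 clone lay above WT and both of the other clone of that knockout below it, a difference that was not tested as such. In *Dnttip1* KO the log2 difference of D2A7 from D1E6 was 0.37 for *Axin2*, 2.42 for *Dkk3*, 1.54 for *Wls*, 1.44 for *Apcdd1*, 1.17 for *Id2*, 0.61 for *Klf2*, 0.44 for *Tfcp2l1*, 0.41 for *Nr0b1*, 0.21 for *Csnk1a1* and 0.16 for *Ctnnb1*. It had the other sign for *Wnt5b* (-1.57) and *Ctbp1* (-0.39). In *Elmsan1* KO the difference of E2E8 from E2G7 was -0.61 for *Tcf7l1*, -0.61 for *Fzd5*, -0.55 for *Sfrp1* and -0.35 for *Lgr4*. A mean over such a knockout describes neither clone.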

How the results depend on the processing

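Of the pathway genes outside the 10 members, 7 were called lower in *Dnttip1* KO, and the count was 4 with a mean of at least 1 FPKM, 15 without clone D2A7 and 4 to 8 when a library was left out (4 without either WT library). The 2 called higher became 1 with a pseudocount of 1, with no filter, with a correlation within clones, with the replicate block, at an adjusted p under 0.05 and with voom, 10 without clone D1E6 and 0 to 3 when a library was left out (0 without WT replicate 2). In *Elmsan1* KO the 13 called lower became 8 to 14 when a library was left out (8 without WT replicate 1). The 0 called higher became 1 with a pseudocount of 0.01, 2 with quantile normalization, 1 with all 10 libraries in 1 fit, 4 without clone E2E8, 2 without clone E2G7 and 0 to 1 when a library was left out. Without clone D1E6 the log2 fold changes in *Dnttip1* KO turned to 0.59 for *Dkk3* and 0.71 for *Apcdd1*, since D2A7 alone then stands for the knockout. Requiring the filter on low values in both groups gave 6 lower and 2 higher in *Dnttip1* KO and 11 and 0 in *Elmsan1* KO. Elsewhere the cause was not tested.

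Among the members, T stayed below WT in all settings, with log2 fold changes of -1.51 to -0.40 in *Dnttip1* KO and -1.21 to -0.33 in *Elmsan1* KO, as did *Lef1* (-1.19 to -0.22 and -0.73 to -0.14) and *Sp5* (-0.81 to -0.39 and -0.73 to -0.47). *Cdx1* ran from 0.02 to 1.77 and from -0.89 to 0.15, and *Tcf7l1* from 0.21 to 0.51 and from -0.38 to 0.26. The replicate numbers did not pair the libraries: deviations of same-numbered libraries correlated by -0.139 to 0.192 over 10 pairs of lines, 1 of them over 0.1, and with the replicate block 6 genes were called lower and 1 higher in *Dnttip1* KO and 13 and 0 in *Elmsan1* KO. Members with under 60 fragments in a library, such as T, *Dkk1* and *Cdx2*, are limited by depth.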
